A study of Mus musculus with 9 samples.

Results

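Lysophosphatidic acid is a small phospholipid that circulates in blood and acts on cells through a family of G protein-coupled receptors, and the 6 genes examined here encode receptors of that family (Lpar1, Lpar2, Lpar3, Lpar5, Lpar6) and the secreted enzyme autotaxin (Enpp2), which makes the lipid. They were taken by gene symbol from a table of 17442 genes in mouse liver. Of the 6, Lpar1, Lpar2, Lpar6 and Enpp2 were analysed, and Lpar3 and Lpar5 were not analysed here. All 4 had a mean of 10 or more normalised reads and so stood among the 12937 genes that were tested. The set was chosen by results of the same genotype comparison in these 9 livers, among them the normalised read counts of Lpar2, which were known to differ. The genotype differences of the 4 genes are therefore given as a description, with their error and without a p-value.

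Autotaxin cleaves choline from lysophosphatidylcholine, a plasma phospholipid, and releases lysophosphatidic acid close to cells. Lpar1, Lpar2 and Lpar3 belong to the same receptor branch as the sphingosine 1-phosphate receptors, while Lpar5 and Lpar6 are closer to the purinergic receptors. The receptors signal through several classes of G protein to phospholipase C and to adenylyl cyclase, and membrane phosphatases remove the lipid again. In liver the pathway is best known from work on fibrosis, on stellate cells and on liver cancer.

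The livers came from 9 male C57BL/6 mice, studied as a model of non-alcoholic fatty liver disease, 4 of them wild type (Msr1+/+) and 5 labelled Msr1-/-. The labels do not say how the mutant allele was made. The product of Msr1 is a scavenger receptor of macrophages that takes up modified lipoproteins. Every mouse in both groups had been fed a diet high in fat and cholesterol over 16 weeks, so there was no group on ordinary food, and the age of the mice was not given in the sources used here. Whole liver was used, in which fewer cells of a type and less RNA per cell cannot be told apart. Each liver gave 1 library, with 15006773 to 18238932 reads recovered. Values are normalised read counts, that is reads divided by 1 size factor per liver, and differences are log2(value + 1) in Msr1-/- minus wild type, a scale that understates the change of low genes.

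The liver of wild type 3 stood apart, with a score of 88.7 on the first principal component against -27.6 to 8.3 in the other 8 livers, so values that rest on it are also given without it. Msr1 itself was read in all 9 livers, at 278.0 ± 125.0 (SD, n = 4) in wild type and 175.4 ± 23.0 (SD, n = 5) in those labelled Msr1-/-. The log2 difference of -0.58 had a two-sided exact permutation p of 0.0476, where 0.0159 is the smallest possible, and without wild type 3 it was -0.31 with an exact permutation p of 0.107. Gene totals do not show which exons were read, so this does not settle the labels, and each direction below is that of the genotype as labelled.

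Autotaxin was by far the most abundant transcript of the 4 per unit length, and Lpar2 the least abundant. In wild type, Enpp2 stood at 11.6 ± 1.1 RPKM (reads per kilobase of exon, scaled to the reads of the library; SD, n = 4), Lpar6 at 4.58 ± 0.64, Lpar1 at 0.429 ± 0.35 and Lpar2 at 0.25 ± 0.064. In the livers labelled Msr1-/- (n = 5) the order was the same, at 13.2 ± 1.9, 4.13 ± 0.61, 0.469 ± 0.12 and 0.0348 ± 0.0052. Enpp2 and Lpar6 did not overlap in any group, nor did Lpar6 and Lpar1. The mean of Lpar1 in wild type rested on wild type 3, at 0.933, and without that liver Lpar1 was at 0.26 ± 0.099 (SD, n = 3) and Lpar2 at 0.22 ± 0.021. Lpar1 and Lpar2 overlapped in wild type, where Lpar1 ranged from 0.173 to 0.933 and Lpar2 from 0.207 to 0.343. They were apart in the livers labelled Msr1-/-, with Lpar1 at 0.284 to 0.603 and Lpar2 at 0.0282 to 0.0403. Counted over the longest transcript instead of all exons, the level of Enpp2 in wild type was 21.7, over 3095 bases in place of 5779, and the order of the means in wild type did not change.

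**Figure D1:**
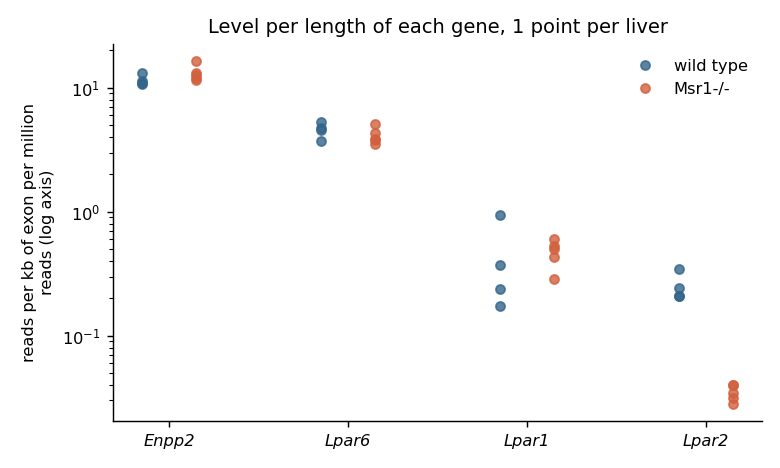
RPKM on a log axis for Enpp2, Lpar6, Lpar1 and Lpar2, 1 point per liver, with 4 wild-type livers in blue and 5 labelled Msr1-/- in orange. Lpar1 and Lpar2 overlap in wild type only, and Lpar2 in the livers labelled Msr1-/- lies between 0.0282 and 0.0403.

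Lpar2 was the receptor whose genotypes were furthest apart. It encodes a receptor of the sphingosine 1-phosphate branch that binds scaffold proteins through its tail. Its normalised reads were 21.39, 24.27, 26.67 and 18.97 in wild type 1 to 4 and 3.179, 3.914, 2.74, 3.508 and 4.007 in Msr1-/- 1 to 5. Every wild-type liver was above every liver labelled Msr1-/-, with a wide gap between 4.007 and 18.97. These values rest on 20, 23, 34 and 20 reads in wild type and on 3, 4, 3, 3 and 4 reads in the others. Summed by genotype and scaled by size factors, 97 reads against 17 made a ratio of 6.66 (exact 95% interval 3.95 to 11.9, which covers counting error only). Mean normalised reads were 22.8 ± 3.4 (SD, n = 4) against 3.47 ± 0.53 (SD, n = 5). On the log2(value + 1) scale the fitted difference was -2.41 (SE 0.30, 95% interval -3.08 to -1.74), or 5.32-fold lower, a smaller fold than that of the reads because of the added 1.

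The difference was about as large without wild type 3. Its Lpar2 value of 26.67 was close to the 24.27 of wild type 2, and without it the log2 difference was -2.34 (SE 0.34). Over the fits that left out 1 liver each, the log2 difference of Lpar2 lay between -2.49 and -2.34. Lpar2 was the 1 gene of the 4 past an adjusted p of 0.05 in limma, where 1.37% of all tested genes were past it, 0.703% lower and 0.665% higher in the livers labelled Msr1-/-. It was also the 1 gene of the 4 whose genotypes did not overlap, as in 7.29% of all tested genes (3.99% with Msr1-/- lower). Since the difference in Lpar2 was known when the set was proposed, nothing is read from these counts.

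Lpar6 was nearly level between the genotypes. It encodes a receptor of the purinergic-like branch known for its part in hair growth. Normalised reads were 504.7, 415.7, 269.1 and 402.2 in wild type 1 to 4 and 436.6, 350.3, 342.4, 446.7 and 327.6 in Msr1-/- 1 to 5. Both the highest and the lowest of the 9 values were in wild-type livers, and the genotypes overlapped. The log2 difference was -0.04 (SE 0.18, 95% interval -0.44 to 0.36). Lpar6 is a single-exon gene on chromosome 14 (73237895 to 73243294, plus strand, mm10) that lies within the tumour suppressor gene Rb1 on the opposite strand and shares 408 exon bases with it. Counting by strand is not stated, so some reads of one gene could be counted for the other. Rb1 stood at 137.4 ± 26.9 in wild type (SD, n = 4) and 148.8 ± 36.1 in the livers labelled Msr1-/- (SD, n = 5), with a limma adjusted p of 0.871.

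Lpar1 depended on wild type 3. The gene encodes the most widely expressed receptor of the family, the one most studied in fibrosis. Its normalised reads were 18.18, 12.66, 53.35 and 24.67 in wild type 1 to 4 and 36.03, 43.06, 35.61, 35.08 and 21.04 in Msr1-/- 1 to 5. Wild type 3 held the highest value of all 9 livers, while the other 3 wild-type livers were at or below 24.67 and 4 of the 5 labelled Msr1-/- were at or above 35.08. With all livers the log2 difference was 0.48 (SE 0.38, 95% interval -0.35 to 1.31). Without wild type 3 it was 0.86 (SE 0.29, 95% interval 0.23 to 1.49, before any correction for the number of genes), at 18.5 ± 6.0 (SD, n = 3) against 34.2 ± 8.0 (SD, n = 5), and it did not pass the adjusted threshold. In wild type 3 the summed normalised reads of several marker lists were also the highest of the 9 livers. They were 7338 for 5 stellate cell markers, against at most 3691 in the other wild-type livers, and most of that sum was Dcn (5352), while Reln was level with 2 other wild-type livers (652.7 against 638.3 and 642.3). Monocyte markers summed to 418.1 there, against at most 105.9, and cholangiocyte markers to 169.5, against at most 99.6. The sums of macrophage markers were high as well, as given with Lpar2 further on. Of the Kupffer cell markers, Cd5l, Marco, Adgre1 and Vsig4 were highest in wild type 3. Clec4f (1845) was within the range of the other wild-type livers, and Timd4 (119.2) was below it. The part of any of these cells in the Lpar1 value of wild type 3 was not tested.

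Enpp2, the gene of autotaxin, did not pass the threshold. Normalised reads were 1358, 1126, 828.4 and 989.5 in wild type 1 to 4 and 1510, 1275, 1144, 1386 and 1157 in Msr1-/- 1 to 5. The genotypes overlapped, with wild type 1 above 3 of the 5 livers labelled Msr1-/- and wild type 3 lowest of all. At 1075 ± 224 (SD, n = 4) against 1294 ± 155 (SD, n = 5), the log2 difference was 0.28 (SE 0.15, 95% interval -0.05 to 0.61), and 0.17 without wild type 3 (SE 0.13). Enpp2 (chromosome 15, 54838901 to 54952892, minus strand) shares 345 exon bases with a long non-coding RNA gene on the opposite strand, and that gene had a mean of 13.42 normalised reads.

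**Figure D2:**
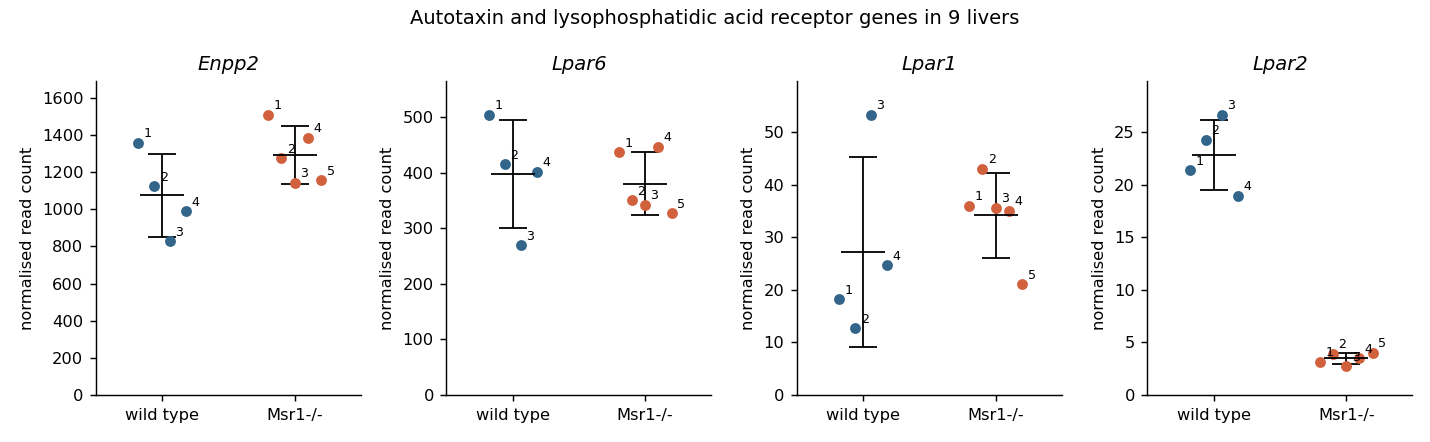
Normalised read counts of Enpp2, Lpar6, Lpar1 and Lpar2, 1 panel each with its own axis from 0, in 4 wild-type livers (blue) and 5 labelled Msr1-/- (orange), numbered by animal, with the mean and SD as bars. Lpar2 is the panel in which the groups are apart, from 18.97 to 26.67 against 2.74 to 4.007, and wild type 3 is the highest point of Lpar1 and the lowest of Enpp2 and Lpar6.

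Receptors for the lipid outside the set were few and low. Lpar4, another receptor of the purinergic-like branch, held 2.139, 3.165, 8.629 and 0.9487 normalised reads in wild type 1 to 4 and from 0 to 3.179 in the livers labelled Msr1-/-. P2ry10, a lymphocyte receptor for lysophospholipids, ranged from 8.44 to 14.91 in wild type and from 2.339 to 7.418 in the others. Neither reached a mean of 10, and they are named because no gene of their list did. Without the filter neither passed in limma, with adjusted p of 0.492 for Lpar4 and 0.274 for P2ry10. On 2 to 19 reads per liver, the genotypes of P2ry10 did not overlap, as in 3.59% of all listed genes with Msr1-/- lower.

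Among 84 tested genes of the wider pathway, 1 passed the threshold, Enpp6, and it was lower in the livers labelled Msr1-/-. The share, 1.19%, was close to the 1.37% of all tested genes, and the median log2 difference of the 84 was 0.01 against 0.02 for all tested genes. At an unadjusted p under 0.05 limma picked 14 of the 84 (16.7%), beside 15.3% of all tested genes. At the adjusted threshold edgeR called Enpp6 alone, where it called 1.43% of all tested genes. DESeq2 called 7 of the pathway genes, Enpp6 among them, where it called 6.0% of all genes to which it gave an adjusted p. Enpp6 is a relative of autotaxin that splits choline-containing glycerophospholipids. Its normalised reads were 50.26, 65.41, 61.97 and 52.18 in wild type 1 to 4 and 13.78, 16.64, 19.18, 17.54 and 18.03 in Msr1-/- 1 to 5, with no overlap. It fell 3.24-fold, a log2 difference of -1.70 (SE 0.20, limma adjusted p = 0.00501), and the adjusted p stayed at or under 0.0241 in limma with any 1 liver left out. The other 4 tested relatives of autotaxin did not pass, and the one of smallest p, Enpp3, stood at 683.7 ± 54.7 (SD, n = 4) against 879.4 ± 197.0 (SD, n = 5).

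Genes that supply or remove lysophosphatidic acid gave no call in limma on all 9 livers, while DESeq2 called Pla2g6 and Plpp3. Of 15 tested supply genes, 9 had a positive log2 difference (median 0.11). The phospholipase gene Pla2g6 stood at 614.9 ± 163.0 in wild type (SD, n = 4) and 1070 ± 157 in the others (SD, n = 5), without overlap and with a limma adjusted p of 0.0619. Lcat, which turns plasma lecithin into its lyso form, stood at 4460 ± 1180 against 5699 ± 713. Of 15 tested removal genes, 11 had a positive difference (median 0.19). Plpp3, a membrane phosphatase that dephosphorylates the lipid outside the cell, stood at 1149 ± 255 against 1749 ± 229, again without overlap (limma adjusted p = 0.0763). The lysophospholipase gene Lypla1 stood at 1543 ± 325 against 1990 ± 150 and did overlap.

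Without wild type 3, Pla2g6 and Plpp3 passed in limma (adjusted p = 0.0165 and 0.0429), as did Agpat3, Axl and Enpp6, so that 5 pathway genes passed where 4.91% of all tested genes did. Plpp3 also passed without wild type 1, and Axl without wild type 4, while Agpat3 is named here after its value was seen.

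Signal transducers and downstream genes gave no call in limma either, while DESeq2 called Arrb2, Gnai1, Ajuba and Axl. Among the transducers the arrestin gene Arrb2 was the one of smallest p, at 461.5 ± 17.4 in wild type (SD, n = 4) and 335.0 ± 42.4 in the others (SD, n = 5), without overlap (limma adjusted p = 0.0802). Gnai1, an inhibitory G protein subunit gene, stood at 103.4 ± 97.9 against 28.4 ± 19.3, and wild type 3 alone held 248.7. Genes that serum and YAP signalling induce numbered 18 tested, with 12 negative and a median of -0.12. That median rested on wild type 3 and was -0.01 without that liver, over the genes still tested. In that list the receptor kinase gene Axl stood at 473.3 ± 181.0 against 250.7 ± 26.6 (limma adjusted p = 0.0811) and the LIM protein gene Ajuba at 177.1 ± 128.0 against 73.7 ± 14.5, with 367.1 in wild type 3. The 5 tested genes listed as receptors for related lysophospholipids had a median of -0.08, or 0.06 without wild type 3. Among them the sphingosine 1-phosphate receptor gene S1pr1 stood at 652.4 ± 132.0 against 761.6 ± 108.0. Gpr4, which was in the same list but encodes a proton-sensing receptor, stood at 20.2 ± 6.0 against 16.2 ± 4.8.

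**Figure D3:**
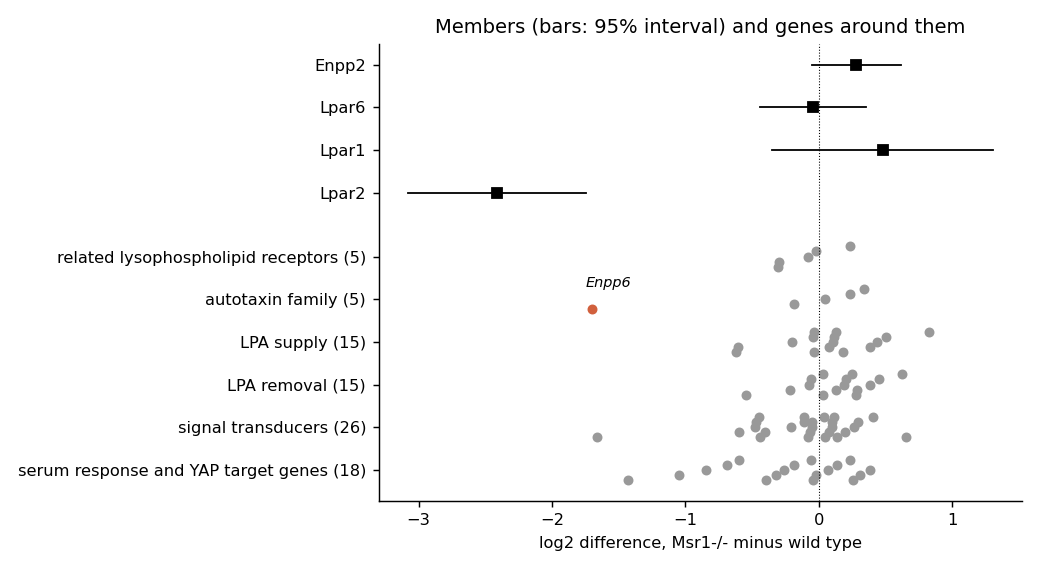
Log2 difference, Msr1-/- minus wild type, with squares and 95% intervals for the 4 genes of the set and 1 dot per tested gene for 6 lists around them, the number tested in brackets and genes past an adjusted p of 0.05 in orange. Enpp6 at -1.70 is the one orange dot among 84, and the interval of Lpar2 runs from -3.08 to -1.74.

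Lpar2 and Enpp6 lie on chromosome 8, which also holds Msr1. Lpar2 spans 69822429 to 69831102 (plus strand, mm10) in 3 exon blocks and starts 30.18 Mb beyond the end of Msr1 (39581685 to 39642673, minus strand). Enpp6 (46986887 to 47096762, plus strand) starts 7.34 Mb beyond it. Chromosome 8 had 23 called genes among 702 tested, or 3.28%, the highest share of any chromosome, and the other chromosomes together had 153 of 12145, or 1.26%. In windows of 5 Mb counted from the start of Lpar2, 4 of 20 tested genes were called in the window before it and 7 of 91, Lpar2 included, in the one after it. A further 4 of 13 were called in the window that begins beside Msr1. The windows of 13 and 20 genes are thinly filled, and the counts rest on few calls.

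**Figure D4:**
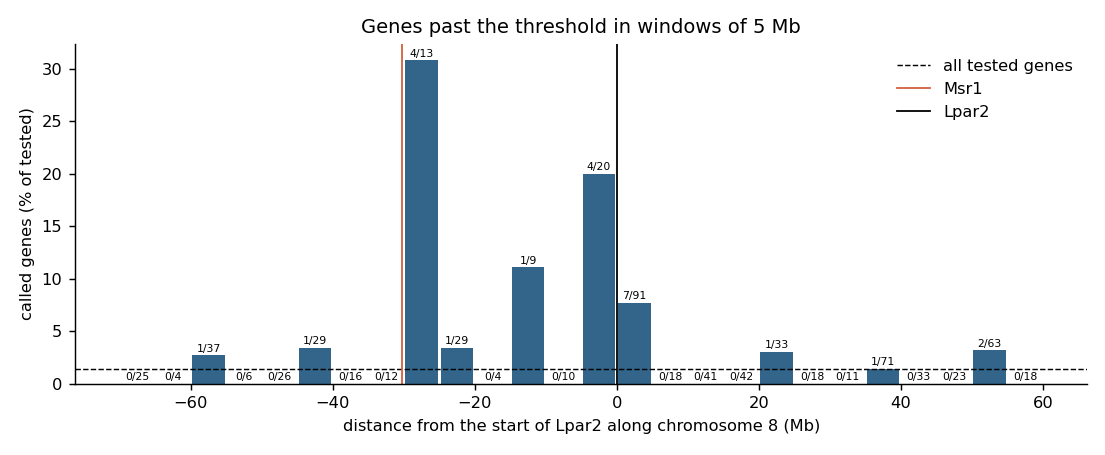
Percentage of tested genes past an adjusted p of 0.05 in 5 Mb windows along chromosome 8, by distance from the start of Lpar2, with called and tested counts above each bar, the share of all tested genes (1.37%) as a dashed line, Msr1 as an orange line and Lpar2 as a black one. The highest bars are 4 of 13 next to Msr1 and 4 of 20 just before Lpar2, and most windows hold no call.

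Within 1 Mb of Lpar2, 8 of 52 other tested genes passed the threshold, 3 higher and 5 lower, or 15.4% beside 1.37% of all tested genes. Around the other 3 genes of the set the counts were 0 of 8 for Lpar1, 0 of 6 for Lpar6 and 0 of 10 for Enpp2, so few that they set little limit. The difference between these neighbourhoods was not tested. Within 500 kb of Lpar2 it was 3 of 23, and within 2 Mb 10 of 81.

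Going along the chromosome, Slc18a1, a vesicular monoamine transporter gene, fell 4.55-fold from 69.1 ± 16.1 (SD, n = 4) to 14.2 ± 2.6 (SD, n = 5; limma adjusted p = 0.00307). Zfp868, a zinc finger gene, rose 3.49-fold, with 75.89 to 124 in wild type and 297.8 to 374.4 in the livers labelled Msr1-/- (limma adjusted p = 0.000485). Beyond Lpar2, Hapln4, which encodes a link protein of hyaluronan, fell 6.43-fold, from 69.04 to 113.9 in wild type to 9.786 to 16.44 (limma adjusted p = 0.000485). These 3 stayed past the threshold with any 1 liver left out, and the genotypes of each were far apart.

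The other 5 calls were less steady. The lipoprotein lipase gene Lpl fell 4.23-fold (limma adjusted p = 0.041), with 4057 in wild type 3 alone, and 2.89-fold without that liver. Lrrc25, a gene of myeloid cells, fell 3.42-fold (adjusted p = 0.0347 in limma), with 121.6 in wild type 3, and the RNA-processing gene Lsm4 fell 1.66-fold (adjusted p = 0.0433). Ints10, an Integrator subunit gene, rose 2.28-fold (limma adjusted p = 0.0492), and Borcs8, a subunit gene of a complex that positions lysosomes, 1.82-fold (limma adjusted p = 0.0247). With 1 liver left out, Ints10 passed only without wild type 3, Lpl only without wild type 2 or 3, Lrrc25 only without wild type 3 or 4, Lsm4 only without wild type 1 or 3, and Borcs8 only without wild type 3, wild type 4 or Msr1-/- 1. Their highest limma adjusted p over those fits was 0.119, 0.107, 0.092, 0.103 and 0.0722.

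The gene next to Lpar2 on the same strand was almost unread in the livers labelled Msr1-/-. Pbx4, a homeodomain transcription factor gene, starts 1389 bases after the end of Lpar2 (69832491 to 69872292). Its normalised reads were 8.555, 14.77, 18.83 and 19.92 in wild type 1 to 4, and 1.826 in Msr1-/- 3 with 0 in the other 4 livers labelled Msr1-/-. The groups did not overlap, as in 3.59% of all listed genes with Msr1-/- lower. Altogether 67 reads stood against 2, a ratio of 39.1 after scaling (exact 95% interval 10.4 to 329.0, counting error only). Its mean was under 10, so it was outside the main test, and it is named as the adjacent gene after its value was seen. With no filter on low values Pbx4 had a limma adjusted p of 0.00463, where 0.969% of the 17442 listed genes passed. On the other side, Gmip ends 559 bases before Lpar2 begins. Gmip stood at 121.5 ± 17.5 in wild type (SD, n = 4) and 89.5 ± 16.2 in the others (SD, n = 5), with overlap and a limma adjusted p of 0.249.

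**Figure D5:**
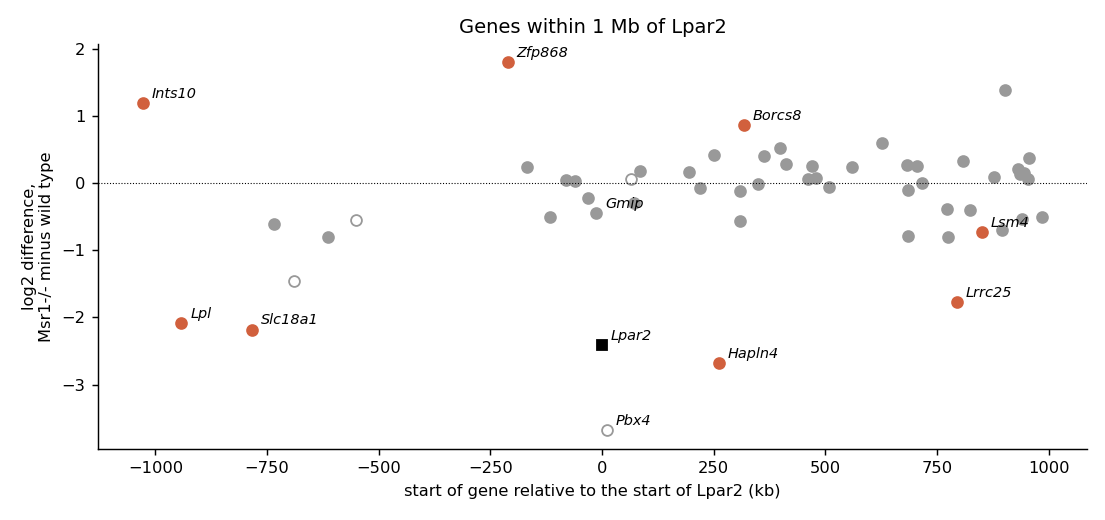
Log2 difference, Msr1-/- minus wild type, of each listed gene within 1 Mb of Lpar2 against the distance of its start from that of Lpar2 in kb, with genes past an adjusted p of 0.05 in orange, Lpar2 as a black square and open circles for genes under a mean of 10. Pbx4 and Hapln4 at -3.68 and -2.68 lie beside Lpar2 at -2.41, with Zfp868 at 1.80 above.

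Promoter sequences are shown for Lpar2 and Pbx4 because these adjacent genes were both low in the livers labelled Msr1-/-. Each is the 250 bases before the start site in RefSeq (build GRCm38, the assembly of mm10), 5′ to 3′, with matches to 5 short motifs on either strand in capitals. Both RefSeq start sites lie inside the gene spans given above, which begin at 69822429 and 69832491. Each window therefore runs past the start of its gene span, and positions below count from the RefSeq site.
Lpar2, chr8:69822315-69822564, plus strand: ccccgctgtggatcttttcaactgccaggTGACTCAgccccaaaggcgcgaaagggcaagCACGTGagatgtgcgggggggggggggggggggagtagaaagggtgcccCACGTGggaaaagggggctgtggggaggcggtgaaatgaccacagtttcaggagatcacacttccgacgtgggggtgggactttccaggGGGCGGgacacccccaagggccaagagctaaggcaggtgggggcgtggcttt
Pbx4, chr8:69832374-69832623, plus strand: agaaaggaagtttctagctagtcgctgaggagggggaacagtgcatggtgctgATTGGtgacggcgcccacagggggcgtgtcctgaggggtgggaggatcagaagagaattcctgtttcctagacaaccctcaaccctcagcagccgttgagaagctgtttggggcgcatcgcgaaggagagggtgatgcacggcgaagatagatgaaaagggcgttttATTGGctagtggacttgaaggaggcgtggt
The motifs searched were the CCAAT box (CCAAT), the GC box (GGGCGG), the E-box (CACGTG), the TATA box (TATAAA) and the AP-1 site (TGANTCA), none of which overlapped another in these windows. The Lpar2 window held 2 E-boxes, at positions -190 and -141 from the start site, 1 AP-1 site at -221 and 1 GC box at -52. Of 32851 promoters of the same length, 6.02% held an E-box, 6.75% an AP-1 site and 32.7% a GC box. The Pbx4 window held 2 CCAAT boxes, at -197 and -30, a motif found in 33.8% of promoters, and so shared none of its motifs with the Lpar2 window. Neither held the TATA box, which 12.4% of promoters did. They had 11 and 12 CpG dinucleotides, against a median of 6, and a run of 19 G bases stood in the Lpar2 window. These are matches of letters and show no binding.

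Marker levels of immune cells are given beside Lpar2. The summed normalised reads of 6 Kupffer cell markers were 4799 to 10570 in wild type and 2771 to 3878 in the livers labelled Msr1-/-, and all 6 had a negative log2 difference, none past the threshold. Those of 5 markers of lipid-associated macrophages were 1475 to 6933 against 736 to 961.2, with all 5 negative and Lpl, itself a neighbour of Lpar2, the one called. In wild type 3 these sums were 10570 and 6933, against at most 6527 and 1997 in the other wild-type livers, while Lpar2 there was 26.67 against 18.97 to 24.27. Lpl alone was at 682.6 to 4057 in wild type and at 248.4 to 381.7 in the livers labelled Msr1-/-. The genotypes of Trem2, Spp1 and Lpl did not overlap, while those of Cd9 and Gpnmb did. Of the Kupffer cell markers, Clec4f and Cd5l did not overlap between the genotypes, while Vsig4, Timd4, Adgre1 and Marco did. For 4 markers of B and plasma cells the sums were 284.8 to 572.1 against 119.8 to 208.4, with Igkc called. Most of each sum was Igkc (216.5 to 478.1 against 68.9 to 176.1). The genotypes of Jchain did not overlap either, while those of Cd79a and Ms4a1 did. For 4 T and NK cell markers the sums were 36.9 to 80.2 against 25.4 to 74.0. Monocyte markers summed to 42.2 to 418.1 against 38.1 to 70.0, with 105.9 as the highest wild-type sum without wild type 3. Neutrophil markers summed to 129 to 280.1 against 55.1 to 115.5, and no monocyte, neutrophil, T or NK cell marker was called. Of the neutrophil markers, Csf3r did not overlap between the genotypes, while S100a8, S100a9 and Retnlg did. The part of these cells in the Lpar2 difference was not tested.

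Among other liver cells, the 5 markers of sinusoidal endothelium summed to 1789 to 2137 against 1773 to 2143, and the 5 hepatocyte markers were abundant in every liver, with Alb, the albumin gene, between 978400 and 1719000. Stellate cell markers summed to 3372 to 7338 against 2969 to 3592, none called. Cholangiocyte markers summed to 66.5 to 169.5 against 28.6 to 57.3 with Sox9 called, and the highest wild-type sum was 99.6 without wild type 3. Sox9 was at 56.97 to 88.65 against 23.32 to 35.08, while Krt19, Krt7 and Epcam overlapped between the genotypes. Of 2 listed adipocyte markers, Cfd was called higher, at 9.495 to 65.46 against 59.11 to 465.4, while Adipoq, under the mean of 10, was at 2.29 ± 0.93 (SD, n = 4) against 0.395 ± 0.54 (SD, n = 5).

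The genes most like each member across livers were found from deviations from the genotype mean, over 9 livers and 10099 genes, so the genotype difference itself did not enter. For Lpar2 they were Rel, Nhsl1 and Zdhhc7, with Pearson r of 0.909, 0.909 and 0.908, and 0.886, 0.919 and 0.957 without wild type 3. For Enpp2 they were F2r, Pde3b and Vps13b (r = 0.955, 0.955 and 0.95, and 0.928, 0.942 and 0.963 without wild type 3). Lpar1 was closest to Themis, Slc16a5 and Cyp4a14 (r = 0.987, 0.976 and 0.969, and 0.964, 0.934 and 0.913 without that liver), and Lpar6 to Polr3g, 2610044O15Rik8 and Cbfa2t2 (r = 0.968, 0.953 and 0.949, and 0.92, 0.91 and 0.871). Genes named Gm with a number or ending in Rik were passed over, so a closer gene of that kind is not shown. Each r is 1 of the 3 highest among the rest of the 10099, over the same few libraries, and is a description without a test. Lpar2 held only 3 or 4 reads in each liver labelled Msr1-/-, so its r rests partly on steps of single reads.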

How the data were processed

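RNA was sequenced from 9 livers, 1 library each, with groups and animal numbers from the sample titles. Per the labels' protocols, library preparation used a TruSeq RNA kit, and no strand setting is stated. The submitters' processing notes list the tools STAR, HTSeq and DESeq2, without versions, and mm10. The authors deposited 1 table of signal, in which each value is a gene's reads over the size factor of its liver. In each liver all values were whole multiples of 1 step (100% within 0.01 reads), so reads were recovered by division. All columns matched a labelled animal, and no 2 libraries of a genotype were duplicates (chi-square per degree of freedom 21.6 or more).

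The main test was limma 3.58.1 (R 4.3.3) with an intensity trend on log2(value + 1), genotype as the only term, a filter at a mean of 10 across livers, and Benjamini-Hochberg adjusted p under 0.05 over all 12937 genes. Intervals are 95%. Alternatives were pseudocounts of 0.5 and 5, other filters, TMM and quantile scaling, weights per array, a block for animal number, recovered reads tested in edgeR 4.0.16 (quasi-likelihood) and in DESeq2 1.42.0, and each liver left out. The script was tested on simulated counts. Positions are from GENCODE M21 on GRCm38, matched by symbol for 16917 genes, by another symbol for 261 and not for 264. The rule for named genes took the members, Msr1, called genes and the 2 of smallest p in each pathway list, called genes within 1 Mb of a member, overlapping genes, and the 3 most alike genes with a mean of 50 or more. It left out genes named Gm with a number or ending in Rik. Members, lists and rule were chosen with earlier results of these data known. The p-values of limma, edgeR and DESeq2 set a genotype difference against the spread between these animals, and the permutation p compares splits of them.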

Additional observations from a re-analysis of the deposited data

Results flagged for a closer look

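In groups of 4 or 5 livers, a value was singled out where its gap to the nearest other liver took up most of the range of its group (Dixon's test at 95%). Of 60 groups looked at, 6 held such a value, and chance gives about 1 in 20. Wild type 3 held 5 of them, at 367.1 for Ajuba, 601.7 for Enpp3, 248.7 for Gnai1, 4057 for Lpl and 121.6 for Lrrc25, high for each but Enpp3. The other was Pbx4 in Msr1-/- 3, at 1.826 where the other 4 livers of that genotype had no read. None of Enpp2, Lpar1, Lpar2 and Lpar6 had such a value in either genotype.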

How the results depend on the processing

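Lpar2 stayed lower in the livers labelled Msr1-/- in every fit that tested it, with log2 differences from -2.73 to -1.71. It was chosen for this difference in the same livers and reached the mean of 10 through the wild-type livers, so its side of the threshold supports nothing. The titles number the animals within each genotype and name no pairs. Deviations of same-numbered animals correlated at 0.025, -0.077, -0.102 and 0.218, too few values to exclude a batch shared by number. With the block, which leaves few degrees of freedom, the log2 difference of Lpar2 was -2.46 and past the threshold no longer, that of Lpar6 was 0.011, and 8 genes were called in all, with 0 members, 0 pathway genes and 1 neighbour of Lpar2. Animal number 5 occurs only among the livers labelled Msr1-/-, so the block takes up that liver, and the block differences of the members equal those without that liver. Enpp2 and Lpar1 kept their sign in all fits. The sign of Lpar6 turned in leave-one-out fits, over which its log2 difference was lowest when wild type 3 was dropped (-0.216), highest when wild type 1 was (0.086), and 0.011 when Msr1-/- 5 was.

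Of all tested genes, 177 were called in limma, and 36 to 629 with 1 liver left out, the highest without wild type 3. DESeq2 called 773, array weights 531, and, chosen after seeing the data, DESeq2, edgeR and limma with the filter of all 9 livers called 1066, 657 and 642 without wild type 3. Pathway genes called, 1 on all livers, were 1 to 5 with a liver left out, 7 in DESeq2, 4 with array weights and 9, 4 and 5 in the last 3 settings. Neighbours of Lpar2 called, 8 on all livers, were 3 to 11 with a liver left out and 3 within 500 kb. At a mean of 50 or more, Lpar1, Lpar2, Enpp6, Slc18a1 and Lrrc25 were not tested. In that setting 0 members, 0 pathway genes and 5 neighbours were called. The Msr1 difference ranged from -0.72 to -0.31 with a liver left out, with exact permutation p from 0.0286 to 0.107. The causes were not tested. At 3 or 4 reads per liver, the level of Lpar2 in the livers labelled Msr1-/- is known only roughly.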
